A study of Arabidopsis thaliana with 4 samples.

Results

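The genes described are 10 members of the LEA and dehydrin families, namely LEA4-5, LEA18, AtLEA4-1, COR47, AT2G21490, AT3G02480, AT3G17520, AT3G15670, AT5G44310 and AT5G66780, out of 11371 genes named on the array. They were taken by gene name or locus, and each had 1 probe set, so no choice between probe sets was needed. None of the 10 probe sets carries the name ending that marks a set able to bind related transcripts. Shoots of 14-day-old wild-type Col-0 Arabidopsis seedlings, grown on upright plates under 24 h light, were dipped for 5 min in either of a pair of liquids and collected 4 h later. The ABA group received 100 uM abscisic acid (ABA) in basal salts with 0.1% Tween 20, a wetting agent, and the mock group received the mock solution, which the labels name MS-Tween. Each group had 2 arrays, each from a separate pool of 20 to 24 shoots, so a level is that of the whole shoot, and fewer cells with a transcript and less transcript per cell cannot be told apart.

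Late embryogenesis abundant (LEA) proteins are small, mostly very hydrophilic proteins that accumulate when seeds dry out and, in vegetative tissue, under drought, cold, salt or ABA. Many have little fixed structure in water and protect enzymes or membranes during drying in test-tube assays. The family is divided by conserved sequence motifs. LEA4-5, LEA18 and AtLEA4-1 belong to the group called LEA_1 in the Pfam database (group 4 in an older scheme). AT3G02480, AT3G17520, AT3G15670 and AT5G44310 belong to LEA_4, a group of repeat proteins that fold into helices on drying. COR47 and AT2G21490 are dehydrins, which share a lysine-rich segment, and AT5G66780 was not placed in a group here. ABA acts on such genes through receptors that block clade A protein phosphatases, which frees SnRK2 kinases to activate transcription factors binding ABA-responsive promoter elements. This grouping is background and was not read from the data files.

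Of the 10 genes, 8 rose after ABA and 0 fell (limma, Benjamini-Hochberg adjusted p from 0.0166 to 0.0480 for the 8). Of the 8, 7 were above noise on both ABA arrays, and AT5G44310 was below noise on all 4 arrays, so 7 rises were measured above noise. At an unadjusted p under 0.05 (limma) the counts were also 8 and 0, beside 7839 of all 19371 probe sets in either direction. At the adjusted threshold, 3.97% of all probe sets were called higher and 19.6% lower. The genes had been chosen with earlier results of these arrays known, so their count describes them and is not independent evidence. The changes ran from -0.47 to 5.38 on the log2(intensity + 16) scale, with a median of 1.497, beside a median of -0.13 over all probe sets. In mock shoots 8 of the 10 lay below the noise level on both arrays, and COR47 alone lay above it on both. Over all probe sets, 35.3% were below it and 59.4% above it on both mock arrays. This level, read on each array from its negative values (the absolute value of the 1st percentile), ran from 7.54 to 8.76. After ABA, 7 of the 10 were above it on both arrays. Of all 19371 probe sets, 10218 were above it on all 4 arrays, so this count alone is not particular to the 10 genes.

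**Figure D1:**
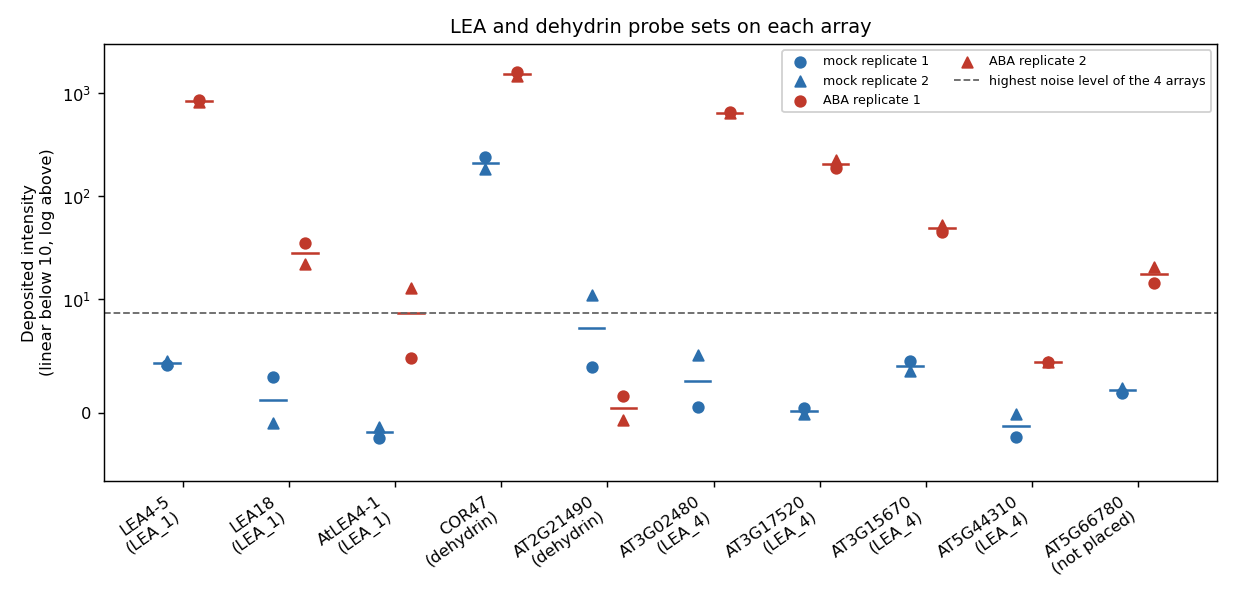
Deposited intensity of each of the 10 probe sets (vertical axis, linear below 10 and logarithmic above) on the 2 mock and 2 ABA arrays, with a short line at each group's mean. COR47 is the only gene with both mock arrays above the dashed noise level of 8.76, while 7 genes have both ABA arrays above it.

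Of 19371 probe sets, 1.01% were above the noise level on both ABA arrays and on neither mock array, and 6 of the 10 genes showed this pattern. Read against the 6835 probe sets that were below the noise level on both mock arrays, of which 2.85% were above it on both ABA arrays, the genes' count was 6 of 8. These 6 were LEA4-5, LEA18, AT3G02480, AT3G17520, AT3G15670 and AT5G66780. For them the mock level is known only as a bound. Each fold is given as at least the ABA intensity, averaged on the log2 scale, over the noise level of the mock arrays. The words at least cover the mock side only, and the spread of the 2 ABA arrays is left out. The log2 changes and intervals printed beside these folds are on the log2(intensity + 16) scale. That scale compresses the change of genes that are dim in mock shoots, so a bound can exceed them. Raising values to the highest noise level, 8.76, gave smaller folds, with log2 changes of 0.96 for AT5G66780 and 1.64 for LEA18. All ABA arrays lay above all mock arrays in 9 of the 10 genes, against 15.0% of all probe sets.

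Among the LEA_1 genes, LEA4-5 and LEA18 rose and AtLEA4-1 did not pass. LEA4-5 encodes a LEA protein that shields enzymes from loss of activity on drying in test-tube assays. Its intensity was 847 and 819 after ABA, and 4.16 and 4.54 in mock shoots. The groups lay far apart, replicates were close, and both mock values were below noise. The level was at least 104-fold higher after ABA (log2 change 5.38, 95% interval 5.28 to 5.48, limma adjusted p = 0.0166).

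LEA18, also called LEA4-2, encodes a second LEA_1 protein. It read 34.4 and 21.6 after ABA and 3.16 and -0.925 in mock shoots. Both ABA arrays were above both mock arrays, but the ABA replicates differed by more than those of LEA4-5. The level was at least 3.42-fold higher (log2 change 1.31, SE 0.21, 95% interval 0.60 to 2.03, limma adjusted p = 0.0480). Its call was lost after quantile normalization (log2 change 1.46, limma adjusted p = 0.0665), with a shared median (1.48, limma adjusted p = 0.0708), with 1 added in place of 16 (3.79, limma adjusted p = 0.0996) and with 64 (0.49, limma adjusted p = 0.0623). AtLEA4-1, the third LEA_1 gene, read 4.83 and 12.7 after ABA and -2.21 and -1.23 in mock shoots. The groups did not overlap, yet only 1 ABA array was above noise, and both mock values entered the fit as 0. Its log2 change of 0.61 did not pass (95% interval -0.053 to 1.28, limma adjusted p = 0.141), and this interval leaves room for both no change and a rise as large as that of AT5G66780.

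Of the 4 LEA_4 genes, AT3G02480, AT3G17520 and AT3G15670 rose from below noise to above it. The fourth, AT5G44310, passed the test with all its values below noise and is described after them. AT3G02480 encodes a short LEA family protein. It read 655 and 635 on the ABA arrays, against 0.542 and 5.02 on the mock arrays. The groups were separated by far more than the replicates differed. The level was at least 80.8-fold higher (log2 change 5.15, 95% interval 4.65 to 5.65, limma adjusted p = 0.0166).

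AT3G17520, the next LEA_4 gene by size of change, read 186 and 225 after ABA and 0.390 and -0.103 in mock shoots. No signal above noise was seen in mock shoots, and the level after ABA was at least 25.7-fold higher (log2 change 3.77, 95% interval 3.39 to 4.14, limma adjusted p = 0.0166). AT3G15670 read 44.5 and 52.4 after ABA and 4.52 and 3.63 in mock shoots. It also crossed the noise level, by a smaller margin, and was at least 6.05-fold higher (log2 change 1.68, 95% interval 1.41 to 1.95, limma adjusted p = 0.0173).

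AT5G44310 read 4.45 and 4.41 after ABA and -2.13 and -0.130 in mock shoots. The groups did not overlap, but all 4 values were below noise. Both mock values were raised to 0 before the fit, which removes their spread and so narrows the error. No fold is given, although the change passed the test (log2 change 0.35, SE 0.018, limma adjusted p = 0.0175). Of the 6374 probe sets below noise on all 4 arrays, 1.44% were called higher in the same fit. With values raised to the noise level, AT5G44310 had no change left to test.

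The dehydrins split, with COR47 higher and AT2G21490 not past the threshold. COR47 is an acidic dehydrin of cold and drought responses, also known as RD17. It read 1600.1 and 1463 after ABA and 238 and 181 in mock shoots. It was the only one of the 10 genes measured above noise on all 4 arrays, so its fold is not a bound. The mean intensity was 7.30-fold higher after ABA, at 1532 ± 96.9 against 210 ± 40.1 (mean ± SD, n = 2 arrays each). The log2 change was 2.79 with 16 added (95% interval 2.23 to 3.34, limma adjusted p = 0.0188) and 2.88 with no constant added and a floor at the noise level. Among the 10218 probe sets above noise on all 4 arrays, it had the change ranked 21 from the top. This rank is on the log2(intensity + 16) scale, which compresses the changes of probe sets dim in mock shoots and so favours bright ones.

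AT2G21490, annotated as dehydrin LEA, read 1.46 and -0.649 after ABA and 4.00 and 10.8 in mock shoots. It was the only one of the 10 whose ABA values lay below its mock values, and only 1 of the 4 values was above noise. The log2 change was -0.47 (95% interval -1.11 to 0.16, limma adjusted p = 0.198), so neither a fall nor a small rise could be told from no change at this signal. AT5G66780, the gene not placed in a group, read 14.2 and 20.4 after ABA and 1.76 and 2.18 in mock shoots. Both ABA arrays were above noise and neither mock array was, and the level was at least 2.13-fold higher (log2 change 0.88, 95% interval 0.49 to 1.28, limma adjusted p = 0.0373).

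**Figure D2:**
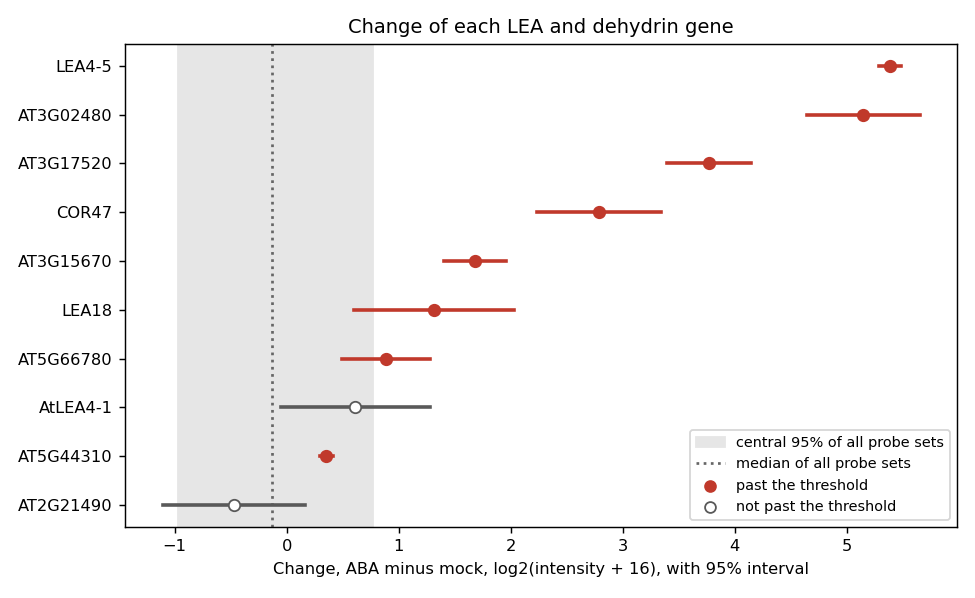
Log2 change, ABA minus mock, with its 95% interval from limma for each gene (n = 2 arrays per group), ordered by size. Filled points passed an adjusted p of 0.05, the grey band spans the central 95% of all probe sets (-0.97 to 0.77), and the points of 7 genes lie beyond its upper edge.

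With 2 arrays per group, leaving out any 1 of the 4 arrays (ABA replicate 1 or 2, mock replicate 1 or 2) ended all 8 calls in limma, as it did for all probe sets. The changes themselves then ran from 5.36 to 5.41 for LEA4-5, from 4.97 to 5.32 for AT3G02480, from 2.60 to 2.97 for COR47 and from 1.10 to 1.53 for LEA18. Without mock replicate 2, AT2G21490 was at -0.26, and without mock replicate 1 at -0.68. Without ABA replicate 2, AtLEA4-1 was at 0.38, against 0.84 without ABA replicate 1. Each of these fits left 1 array in a group, so beyond the lost calls only the sizes of change are read from them. The sizes for genes below noise in mock shoots depended on the constant, at 7.28 with 1 and 3.71 with 64 for LEA4-5, whereas COR47 stayed between 2.31 and 3.19 over the constants, scalings and floor tried.

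**Figure D3:**
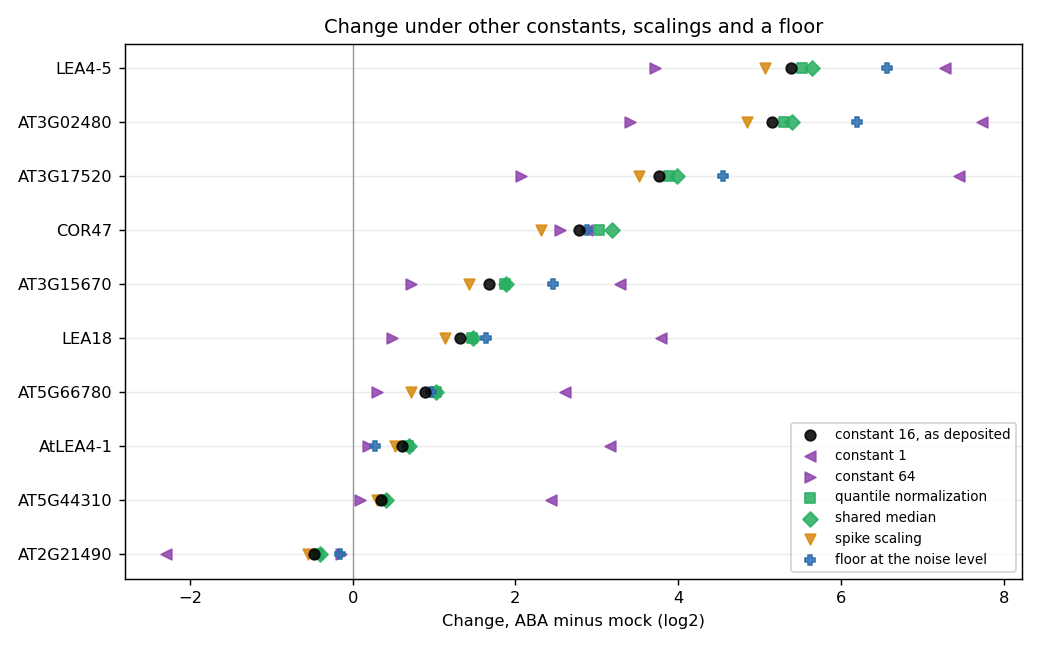
Log2 change of each gene with other added constants, other scalings between arrays and a floor at the noise level (horizontal axis), 1 row per gene. Points spread widely for those below noise in mock shoots (3.71 to 7.28 for LEA4-5) and narrowly for COR47 (2.31 to 3.19), and no gene changes sign.

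The arrays differed in overall level, which bears on the size of each change. Median intensities were 16.9 and 17.0 for the mock arrays but 12.4 and 12.9 for those of ABA, and the median log2 change of all probe sets was 0 with a shared median and -0.34 under spike scaling. Of 5 shoot marker loci 4 were named, and their summed intensity ran from 4605 to 4851 on the ABA arrays and from 5888 to 6299 on the mock arrays, with 3 of 4 called lower (RCA, LHCB4.1 and LHCB4.2) while LHB1B2 (log2 change 0.17) missed the threshold. All 4 probe sets are named as able to bind related transcripts. Of 4 root marker loci 2 were named, and their sum ran from 106 to 122 on the ABA arrays and from 280 to 321 on the mock arrays. Of these 2, PYK10 was called lower, while the root hair gene EXPA7 was called higher (log2 change 0.12) with all 4 values below noise. Of 13 loci for seed storage and oil body proteins, 1 was named, OLEO3, which read 9.51 and 11.3 after ABA, read 5.75 and 7.04 in mock shoots and did not pass (log2 change 0.24, limma adjusted p = 0.0885). The part of these differences in the changes of the 10 genes was not tested.

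The wider LEA family gives the setting for these genes. Of 42 further LEA family loci, 21 were named on the array, 3 of them rose and 0 fell, with 18 not called and a median log2 change of 0.10, beside 3.97% higher and 19.6% lower over all probe sets. Of the 21, 0 went from below noise on both mock arrays to above it on both ABA arrays, beside 1.01% of all probe sets, so a count of 0 is near that background. A further 14 were below noise on all 4 arrays, and 6 were above noise on both mock arrays. In this count the seed-type groups SMP and AtM had 3 and 2 named genes, all below noise on every array. The difference between the 10 genes and these 21 was not tested, since the 10 had been chosen with their values known.

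The 3 that rose were COR15A, COR15B and AT2G23120. COR15A and COR15B encode chloroplast LEA_4 proteins that protect membranes in freezing. COR15A read 1223 and 1188 after ABA and 88.6 and 70.8 in mock shoots (log2 change 3.68, SE 0.12, limma adjusted p = 0.0166). COR15B had a pair of probe sets that disagreed in size, at 3.61 for the brighter one, whose name marks it as able to bind related transcripts, and 2.56 for the other. AT2G23120, of a small group related to a bean LEA18 protein, read 787 and 919 after ABA and 353 and 333 in mock shoots (log2 change 1.27, SE 0.10, limma adjusted p = 0.0224). All 3 were above noise on both mock arrays, as was COR47.

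Of those that did not pass, the largest changes were 0.44 for AT2G44060, an LEA_2 gene (limma adjusted p = 0.0532), and 0.38 for AT4G21020, an LEA_4 gene (0.0701) whose values were below noise on all arrays. AT1G54410, a small histidine-rich dehydrin also called HIRD11 and named here after its values were seen, read 672 and 980 after ABA and 738 and 838 in mock shoots. These groups overlapped, and its log2 change was 0.045 (SE 0.24, limma adjusted p = 0.965). Of the named dehydrins, COR47 was the only one called. Of 11 loci of the cold regulon 2 were named, and both rose, KIN1 by 3.72 and KIN2 by 1.51 on the log2 scale. Of 28 loci for ABA receptors, clade A phosphatases, SnRK2 kinases and ABF or ABI transcription factors, 0 were named, so this step of the pathway was not analysed here.

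**Figure D4:**
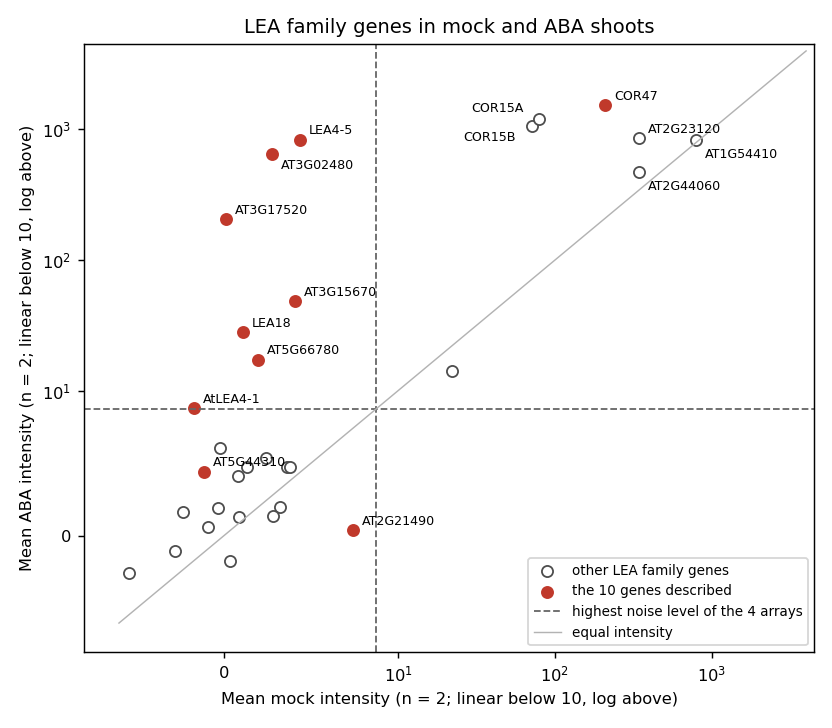
Mean intensity in mock (horizontal) and ABA shoots (vertical), n = 2 arrays each, both axes linear below 10 and logarithmic above, for the 10 genes (filled) and 21 other LEA family genes (open). LEA4-5, AT3G02480 and AT3G17520 lie left of the vertical noise line and far above the horizontal one, whereas COR47, COR15A and COR15B lie right of the vertical noise line and above the line of equal intensity.

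The genes next to the 10 on the chromosomes were taken by the order of protein-coding genes in the TAIR10.1 annotation. Of 20 such neighbours 12 had a named probe set. Of these 12, 0 were called higher, 3 lower and 9 neither (limma), beside 3.97% higher and 19.6% lower over all probe sets. In 12 genes, counts of 0 and 3 are near these shares, so they show nothing particular to the neighbours. The 3 lower ones, named after their values were seen, were SAMDC next to AT3G02480 (log2 change -0.49), AT3G15680 next to AT3G15670 (-1.30) and AT5G66770 next to AT5G66780 (-1.01). SAMDC encodes an enzyme of polyamine synthesis, and its probe set is named as able to bind related transcripts. AT3G15670 went from 4.07 ± 0.625 to 48.4 ± 5.56 while its neighbour AT3G15680 went from a mean of 104 to 32.8.

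For 3 of the genes, the genes with the most similar values over the 4 arrays were sought among 11361 named genes outside the 10, by Euclidean distance between log2(intensity + 16) values taken from each gene's own mock mean. For LEA4-5 and for AT3G02480 the same 3 genes came first. LEA4-5 and AT3G02480 lay nearer to each other, at 0.40, than to any of these. AT1G16850 came first for both, at distances of 1.29 and 0.98, followed by AT2G41190, an amino acid transporter family gene (1.89 and 1.56), and SAG29, a SWEET sugar transporter gene (2.03 and 1.76). Their log2 changes were 4.47, 4.05 and 3.96. For COR47 the nearest were AT5G53710 at 0.20, AT3G57010 at 0.27 and AT2G28400 at 0.28, with log2 changes of 2.71, 2.68 and 2.77. These distances describe 4 arrays and depend on the constant added, since AT5G53710, AT3G57010 and AT2G28400 had mock means of 10.1, 14.2 and 7.61, against 210 for COR47.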

How the data were processed

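Total RNA of shoots was amplified, labelled with biotin and hybridised to a 1-colour array, per the labels' protocols. Each deposited value is a linear-scale intensity. Since 12.8% to 13.7% of an array's values lay below 0, something had been subtracted from the signal, but what it was is not given. How the authors summarised and scaled the values is also not given in the sources used. No read depth exists, and 2 arrays per group limit the precision. An exact permutation test of 2 against 2 cannot go below p = 0.333, so limma's fit over all probe sets was used.

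Of 19658 probe sets, 287 control sets were left out. Names are those of the public array annotation, updated through TAIR10.1 (11598 probe sets named, 7773 unnamed here). The build of the array is not given, so no coordinates or sequences are printed. Values were transformed as log2(intensity + 16), with any below 0 first raised to 0. The comparison of ABA with mock used limma 3.58.1 (R 4.3.3), two-sided, with Benjamini-Hochberg adjustment over 19371 probe sets. The code was tested on simulated data with changes placed in bright probe sets only. That test does not cover rises from below noise or values raised to 0. Setting values below 0 to 0 keeps the log defined and gives dim genes little spread.

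All members, gene lists and tests were chosen with earlier results of these data known. Named genes were the 10 members, up to 6 called and 2 uncalled genes per list by size of change, and the 3 nearest genes for LEA4-5, AT3G02480 and COR47. Where a gene had several probe sets, the brightest stood for it. The labels call the replicates biological, and nothing besides treatment was fitted. Same-numbered arrays' deviations from their group means correlated at 0.039, so the numbers were not taken to pair the arrays.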

Additional observations from a re-analysis of the deposited data

How the results depend on the processing

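For the 10 genes, the call was unchanged in 74 of 86 combinations of gene and alternative other than leaving out an array, and lost in 12. No sign turned in any. Of the 12 losses, 8 came with the replicate block and 4 were those of LEA18. The count of 8 higher became 7 with constants of 1 and 64, quantile normalization and a shared median. It was 7 of 7 tested with the filter on dim probe sets and 7 of 9 with the floor at the noise level. The filter kept probe sets by their mean over all 4 arrays, and the floor kept those above noise on any array. Genes dim in mock shoots could thus enter through their ABA values. The counts under the filter and floor, and their share of the 86 combinations, are therefore no independent support. Spike scaling and an intensity trend kept 8. The replicate block left 0 calls among the 10 genes, among the 21 other LEA genes and among all probe sets (limma), with 7115 probe sets and 8 of the 10 genes at an unadjusted p under 0.05. Without ABA or mock replicate 1 or 2, the lowest and highest counts of calls were both 0 for all 3. Among other LEA genes, AT2G44060 was also higher with a shared median, the filter and the floor. AT5G53260 was called lower with a constant of 1 and with an intensity trend. All 4 of its values were below noise, and both ABA values, being below 0, were raised to 0 before the fit. AT2G46140 was called lower with spike scaling, the filter and the floor at the noise level. Lower calls over all probe sets, 3805 as deposited (83.2% of calls), numbered 1016 after quantile normalization (53.2%), 811 with a shared median (45.0%), 8169 under spike scaling (94.0%) and 5809 with the filter. The causes were not tested. The floor at the noise level, chosen after seeing the data, left out AT5G44310. No gene had another probe set, so that alternative was not run.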
